A study of Mus musculus with 6 samples.

Results

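The testis pathway genes described here are 9 genes that Sertoli cells, the supporting cells of the fetal testis, use during their differentiation and that were chosen as genes a fetal ovary should keep low: Sox9, Sox8, Sox10, Amh, Dhh, Fgf9, Dmrt1, Aard and Cst9. They were found by matching Ensembl identifiers to mouse gene symbols, and all 9 were among the 48709 genes counted. RNA was measured in ovaries of mouse embryos at 13.5 days post coitum (dpc) whose mothers, wild type CD1 mice, were gavaged between 10.5 and 13.5 dpc, 4 times per day at 3 h intervals. Dams of the 3 control libraries received the ethanol diluent alone. Dams of the 3 APAP+IBU libraries received acetaminophen (APAP, 30 mg/kg per day) alternating with ibuprofen (IBU, 15 mg/kg per day). The drugs came from ethanol stocks diluted with PBS, so exposed dams received ethanol too. Both drugs are analgesics that block prostaglandin synthesis. Each library came from its own pool of embryonic gonads gathered from a pair of dams, so the spread within a group is that between pools. No testis was sequenced, and the levels cannot be set beside those of a male gonad of the same age.

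In an XY gonad, SRY raises Sox9 in the supporting cells, and SOX9, with the related SOX8 and SOX10, then takes part in turning on Sertoli genes. The ligand FGF9 and prostaglandin D2 maintain Sox9, AMH makes the female ducts regress, and DHH acts on the neighbouring fetal Leydig cells. In an XX gonad, WNT4 and RSPO1 signalling and later FOXL2 oppose these genes. DMRT1, which keeps the male fate of Sertoli cells after birth, is also made in germ cells of both sexes.

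No member was called with all 6 libraries. Dhh, Cst9 and Aard were the members called lower in each of the 3 fits described further on that called any member. With replicates 1 and 2 only, 12.9% of all tested genes were called lower, and 7.3% with a length and GC correction added. Without control replicate 3 alone, the share was 2.26%. Those fits share libraries and all leave out control replicate 3, so they are not independent of each other. The reference sequence just upstream is shown for Cst9 and Dhh. The sequences are the 250 bases before the RefSeq gene start on the gene's strand of GRCm38.p6, 5′ to 3′, and neither overlaps an annotated exon. The Cst9 window is chr2:148834897-148835146 on the forward strand and the Dhh window is chr15:98898541-98898790 on the reverse strand. Capitals mark matches, on either strand, to 5 short motifs. SOX proteins bind the core letters AACAAT, and the variant of this core that was searched beside it was ACAAAG. Proteins of the GATA family bind sites such as AGATAA, and the second form searched for this family was TGATAA. The last motif, AGGTCA, is part of the site of the nuclear receptor NR5A1.
Cst9: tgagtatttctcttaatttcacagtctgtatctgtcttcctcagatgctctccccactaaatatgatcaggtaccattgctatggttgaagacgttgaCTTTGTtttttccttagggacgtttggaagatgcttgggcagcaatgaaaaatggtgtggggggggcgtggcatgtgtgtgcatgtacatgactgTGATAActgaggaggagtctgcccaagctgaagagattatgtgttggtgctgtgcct
Dhh: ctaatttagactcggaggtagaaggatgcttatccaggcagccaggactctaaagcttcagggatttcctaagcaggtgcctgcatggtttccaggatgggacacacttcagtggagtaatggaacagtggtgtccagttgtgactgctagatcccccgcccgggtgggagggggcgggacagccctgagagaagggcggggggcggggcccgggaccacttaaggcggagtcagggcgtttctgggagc
The Cst9 window held ACAAAG on its reverse strand and TGATAA on its forward strand, and the Dhh window held none of the 5 motifs. Of 32851 promoter windows of the same length, 16.5% held ACAAAG, 7.94% TGATAA, 9.42% AACAAT, 9.99% AGATAA and 14% AGGTCA, and 44.0% held at least 1 of them. AGATAA and TGATAA differ in their first letter and cannot match at the same place on a strand. A match of letters is a description and does not show binding.

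Total counts per library ran from 37811968 to 48954631. Values are CPM, read counts scaled to a common library size, after TMM normalisation, which scales libraries to each other, and changes are log2 fold changes of APAP+IBU over control from the quasi-likelihood test of edgeR, with p adjusted by Benjamini-Hochberg over the 20167 genes that passed its expression filter. Genes of other tissues differed between libraries. The summed level of 14 spermatid genes, which are not part of the fetal ovary, was 175, 56.6 and 56.2 CPM in control replicates 1, 2 and 3 and 5.04 to 10.5 CPM in APAP+IBU libraries, with none of the 14 at 0. The summed level of 4 Y-linked genes, among them Ddx3y and Eif2s3y, was 9.37 CPM in control replicate 2, or 3.5 times the median of the other 5 libraries, which held 2.26 to 2.86 CPM, and all 4 genes were highest there. Sry itself had 0 counts in every library, and the upper ends of the exact 95% Poisson intervals were 0.0727 to 0.0987 CPM. The summed level of 10 liver genes reached 1970 CPM in the third control and 3210 CPM in the third exposed library but 192 to 560 CPM elsewhere, with none of the 10 at 0. Germ cell and gonadal somatic markers were present throughout: Ddx4 (germ cells) had 224 ± 39.9 CPM in controls and 240 ± 14.2 CPM in APAP+IBU ovaries, and Wt1 (somatic cells) 277 ± 4.35 and 283 ± 27.9 CPM (SD, n = 3).

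No member passed the test over all 6 libraries. At an adjusted p under 0.05, 0 of 9 members were called, as were 0.0% of all tested genes, and the smallest adjusted p among the members was 0.692 in edgeR's test. DESeq2 called 0 of 9 too, with 0.717% of its 32782 genes called and a smallest adjusted p of 0.308 among the members. At an unadjusted p under 0.05, 1 member, Dhh, was lower in APAP+IBU ovaries in edgeR's test, where 3.21% of all genes were lower at that limit, and 3 members, Dhh, Sox8 and Amh, were lower in DESeq2, where 3.12% of all genes were. Fold changes on the log2 scale were negative for 8 members and positive for Sox10, with a median of -0.55 over the 9 and -0.00467 over all tested genes. Control and APAP+IBU values overlapped for each of the 9, while they did not overlap for 10.7% of all tested genes and lay wholly higher in controls for 5.92%. All 9 had passed the filter on low counts, so none was lost to it. In bulk RNA of pooled gonads, fewer cells that express a gene and less RNA per cell cannot be told apart. The following paragraphs give each member by its role.

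Sox9, the transcription factor that starts Sertoli differentiation (ENSMUSG00000000567, chr11:112782224-112787760, forward strand), had 8.42, 10.6 and 5.37 CPM in control replicates 1, 2 and 3 and 6.15, 5.98 and 5.99 CPM in APAP+IBU replicates 1, 2 and 3. The exposed libraries lay close together, at 6.04 ± 0.0962 CPM (SD, n = 3), and inside the range of the controls, at 8.12 ± 2.62 CPM. The log2 fold change was -0.43 (SE 0.26, adjusted p = 0.698 in edgeR's test). Behind these levels stood 230 to 395 reads per library.

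Sox8, which acts alongside Sox9 in Sertoli cells (ENSMUSG00000024176, chr17:25565892-25570686, reverse strand), had 4.93, 4.93 and 2.86 CPM in controls and 2.98, 2.25 and 3.15 CPM in APAP+IBU ovaries. Control replicates 1 and 2 were above every exposed library, and control replicate 3 lay among them. Its log2 fold change was -0.60 (SE 0.29, adjusted p = 0.692 in edgeR's test). The antisense gene 2810468N07Rik shares 329 exon bases with Sox8. Since the strand setting of the counting is not given, reads of these bases cannot be assigned with certainty. That gene had 6.09, 7.76 and 5.16 CPM in controls and 7.10, 5.83 and 5.60 CPM in exposed ovaries.

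Sox10, the third member of the SOXE group and better known from neural crest and Schwann cells (ENSMUSG00000033006, chr15:79154908-79165240, reverse strand), had 1.15, 1.79 and 0.507 CPM in controls and 1.66, 1.46 and 0.963 CPM in APAP+IBU ovaries. The lowest and the highest of the 6 values were both controls. Its log2 fold change was 0.25 (SE 0.47, adjusted p = 0.860 in edgeR's test) and became -0.11 without control replicate 3, so its direction rested on that library. The glial gene S100b was present beside it at 0.627 ± 0.229 CPM in controls and 0.650 ± 0.229 CPM in exposed ovaries (SD, n = 3), and it too was lowest in control replicate 3. The part of glial cells in the level of Sox10 was not tested.

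Dmrt1 (ENSMUSG00000024837, chr19:25505618-25604329, forward strand) was the member with the most reads, 1160 to 2108 per library. It had 55.3, 36.6 and 30.9 CPM in controls and 26.9, 25.3 and 35.8 CPM in APAP+IBU ovaries. Control replicate 1 was the highest, and APAP+IBU replicate 3 was close to control replicate 2. The log2 fold change was -0.48 (SE 0.24, adjusted p = 0.692 in edgeR's test), and it was -0.20 without control replicate 1.

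Amh, the hormone that removes the Müllerian ducts in males (ENSMUSG00000035262, chr10:80805243-80807648, forward strand), had 2.49, 2.60 and 0.253 CPM in controls and 0.769, 0.742 and 0.495 CPM in APAP+IBU ovaries. Control replicate 3 was the lowest of all libraries and the other controls were the highest, a 10.3-fold range within the group. Its 11 reads in control replicate 3 gave an exact 95% Poisson interval of 0.126 to 0.453 CPM, below that of 2.02 to 3.05 CPM in control replicate 1, so counting error does not span the gap. Such intervals cover counting error only. Amh had a log2 fold change of -1.40 (SE 0.72, adjusted p = 0.692 in edgeR's test).

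Dhh, the hedgehog ligand of Sertoli cells (ENSMUSG00000023000, chr15:98891152-98898540, reverse strand), had 3.23, 3.69 and 1.13 CPM in controls and 1.24, 1.31 and 0.625 CPM in APAP+IBU ovaries. As for Amh, control replicates 1 and 2 were above all exposed libraries. Unlike for Amh, control replicate 3 was within the exposed range. The log2 fold change was -1.33 (SE 0.49, unadjusted p = 0.0261, adjusted p = 0.692 in edgeR's test). By an exact permutation test of its log2 CPM, two-sided, p was 0.3, where 0.1 is the smallest that 3 against 3 libraries allow. Dhh shares 546 exon bases with Rhebl1 on the same strand, so reads there could be counted for either gene or for neither. Rhebl1 had 9.55, 9.99 and 10.5 CPM in controls and 8.24, 6.05 and 11.4 CPM in exposed ovaries, and its highest level was in APAP+IBU replicate 3, where Dhh was lowest. An antisense gene, Gm49442, shares 1107 exon bases with Dhh and was not analysed here.

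Fgf9, the growth factor that sustains Sox9 and opposes Wnt4 (ENSMUSG00000021974, chr14:58070547-58112720, forward strand), had 4.07, 5.27 and 4.47 CPM in controls and 4.38, 2.53 and 5.52 CPM in APAP+IBU ovaries. It was the member with the smallest change, at a log2 fold change of -0.15 (SE 0.31, adjusted p = 0.870 in edgeR's test). The lowest and the highest values were both exposed libraries, and without APAP+IBU replicate 2 the log2 fold change was 0.10.

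Aard, a gene with alanine and arginine rich sequence that marks early Sertoli cells (ENSMUSG00000068522, chr15:52040107-52045722, forward strand), had 31.2, 26.7 and 11.1 CPM in controls and 17.4, 14.8 and 14.9 CPM in APAP+IBU ovaries. Cst9, a cystatin family gene used as a Sertoli marker (ENSMUSG00000027445, chr2:148835147-148838738, forward strand), had 5.88, 11.0 and 1.17 CPM in controls and 3.08, 1.48 and 1.59 CPM in APAP+IBU ovaries. In both genes control replicates 1 and 2 were the highest libraries and control replicate 3 the lowest. The control range of Cst9 was 9.39-fold. The log2 fold change was -0.55 (SE 0.34, adjusted p = 0.698) for Aard and -1.55 (SE 0.69, adjusted p = 0.692) for Cst9 in edgeR's test.

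**Figure D1:**
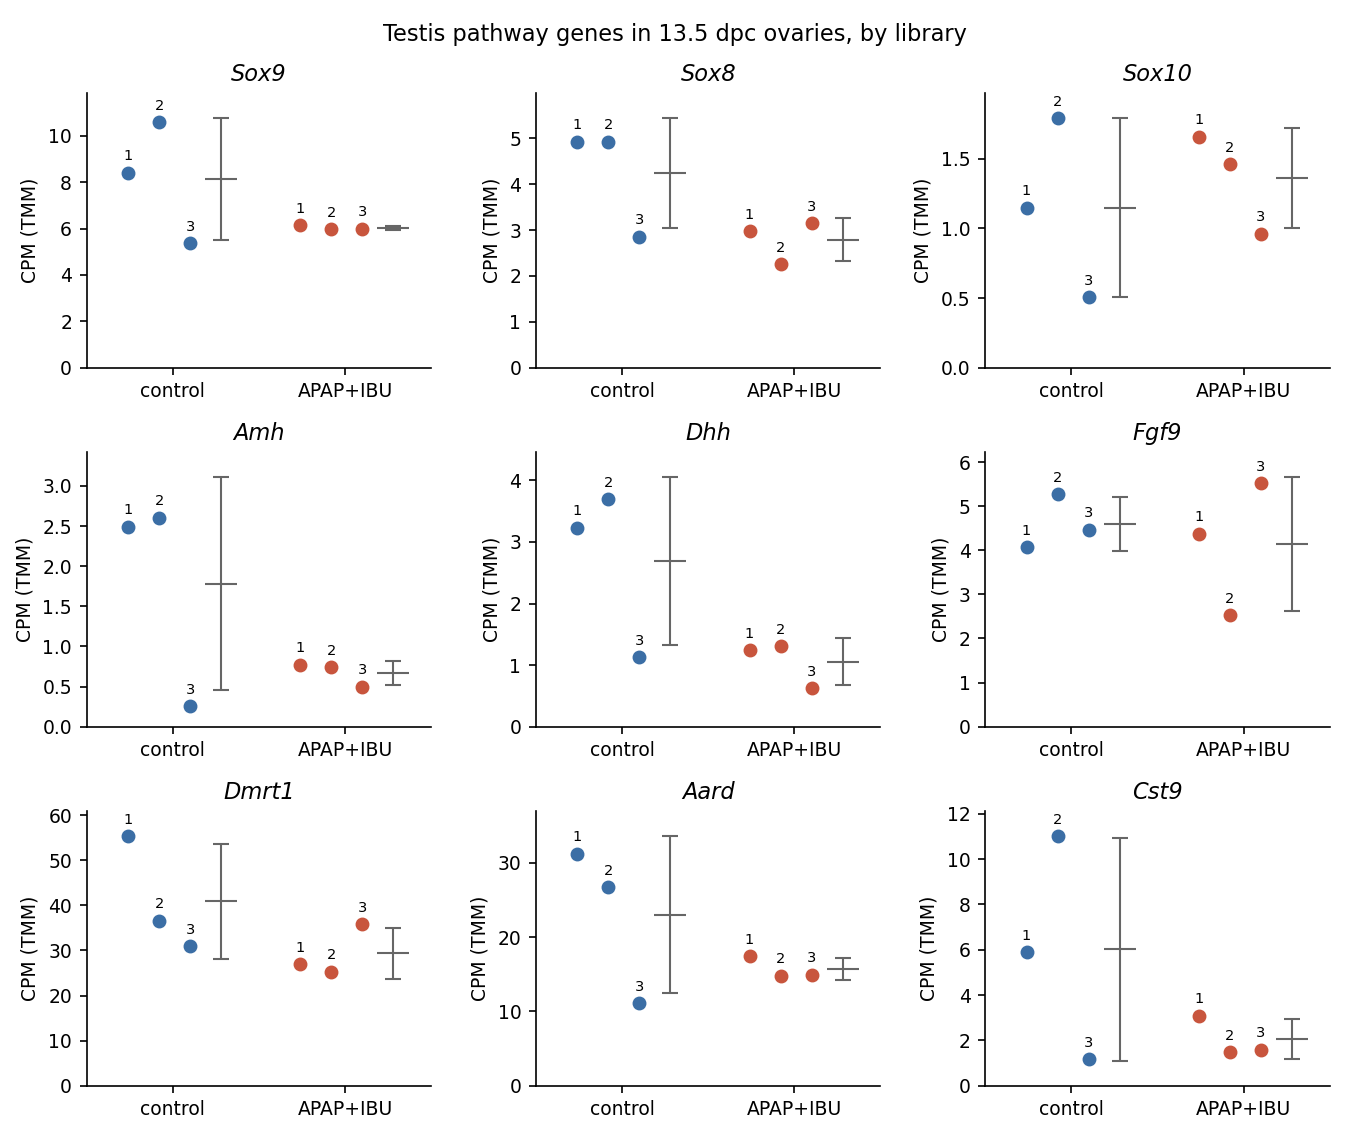
CPM after TMM normalisation (y axis, from 0, own scale for each gene) of the 9 genes in 3 control (blue) and 3 APAP+IBU (red) libraries, numbered by replicate, with the mean and SD of each group (n = 3) in grey. In Amh, Dhh, Aard and Cst9, control replicates 1 and 2 lie above the exposed libraries and control replicate 3 lies below or among them.

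Most members shared an order of the control libraries. Control replicates 1 and 2 were above every exposed library for 7 of 9 members, all but Sox10 and Fgf9, as they were for 25.1% of all tested genes. Control replicate 3 was the lowest of the 6 libraries for 5 members (Sox9, Sox10, Amh, Aard and Cst9) and for 21.4% of tested genes, and control replicate 2 was the highest for 5 members (Sox9, Sox10, Amh, Dhh and Cst9) and for 12.2%. For 8 of 9 members, all but Fgf9, the highest library was control replicate 1 or 2, as for 41.2% of tested genes. The summed level of the 9 was 117, 103 and 57.7 CPM in controls and 64.5, 55.9 and 69.0 CPM in exposed libraries. In control replicates 1, 2 and 3, the spermatid sums were 175, 56.6 and 56.2 CPM and the Y-linked sums 2.68, 9.37 and 2.26 CPM. In exposed libraries, the Y-linked sums were 2.64 to 2.86 CPM. The liver sum was high in replicate 3 of both groups. Among exposed libraries, Sox10 and Amh were lowest in replicate 3, while Sox9, Aard and Cst9 were lowest in replicate 2. Ovarian genes were also low in control replicate 3, with a sum over 10 genes of 566 CPM against 721 and 857 CPM in the other controls and 694 to 748 CPM after exposure. The part of these differences between pools in the members' levels was not tested.

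**Figure D2:**
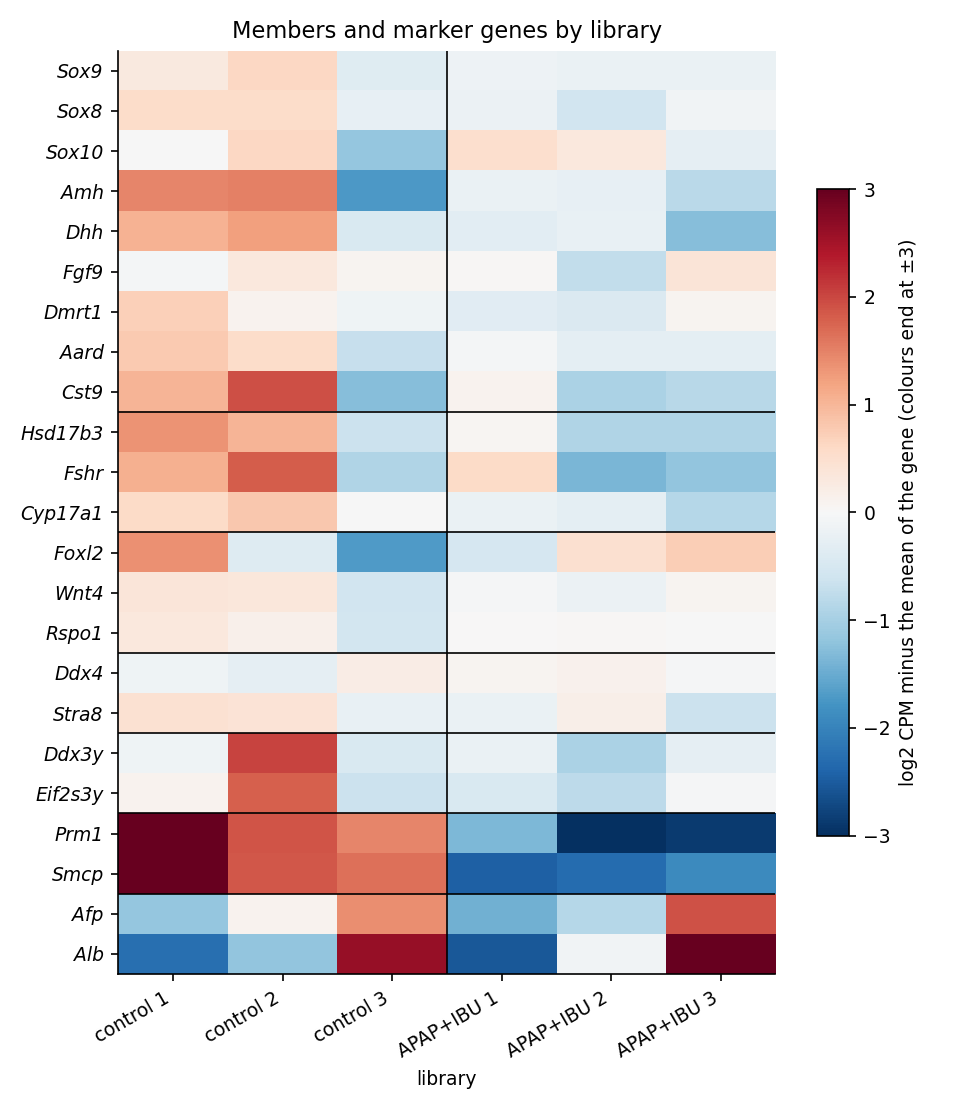
Log2 CPM of each gene minus its mean over 6 libraries (colour; limits of the scale at -3 and 3), for the 9 members and, below the lines in turn, genes whose pattern was near that of some members, ovarian, germ cell, Y-linked, spermatid and liver genes (rows), in the 3 control and 3 APAP+IBU libraries (columns). Amh, Dhh and Cst9 are red in control replicates 1 and 2, the Y-linked genes in control replicate 2, and the liver genes in replicate 3 of both groups.

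How many members passed the test depended on which libraries were used. With replicates 1 and 2 of each group only, 6 of 9 members were called by edgeR, all 6 lower in APAP+IBU ovaries, where 12.9% of 20633 tested genes were called lower. They were Amh (log2 fold change -1.73, adjusted p = 0.00988), Aard (-0.82, 0.0102), Dhh (-1.42, 0.0123), Cst9 (-1.86, 0.020), Dmrt1 (-0.79, 0.0227) and Sox8 (-0.89, 0.0385). Sox9 missed the limit at -0.63 (adjusted p = 0.0533), Fgf9 was at -0.41 (0.373) and Sox10 at 0.10 (0.849). When these 4 libraries were also corrected for gene length and GC content, 3 members stayed below the limit, Dhh at -1.32, Cst9 at -1.74 and Aard at -0.49, with 7.30% of all genes called lower. Without control replicate 3 alone, 4 members were called lower, with 2.26% of all genes called lower: Aard at -0.88 (adjusted p = 0.0389), Amh at -1.92 (0.0385), Cst9 at -2.04 (0.0429) and Dhh at -1.70 (0.0456). Without control replicate 2, the library with the raised Y-linked genes, no member was called and none had an unadjusted p under 0.05 in edgeR's test. Of 20939 genes tested there, 0 were called and 701 had an unadjusted p under 0.05. The members' log2 fold changes then ran from -1.03 for Dhh to 0.72 for Sox10, with a median of -0.48. Those of Cst9 and Amh were -0.78 and -1.02. Without control replicate 1, the library with the most spermatid RNA, the members' median was -0.40. Again no member was called or had an unadjusted p under 0.05. Of 20897 genes tested there, 0 were called and 674 had an unadjusted p under 0.05. The smallest adjusted p among the members was 0.980 without control replicate 2 and 0.999 without control replicate 1.

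**Figure D3:**
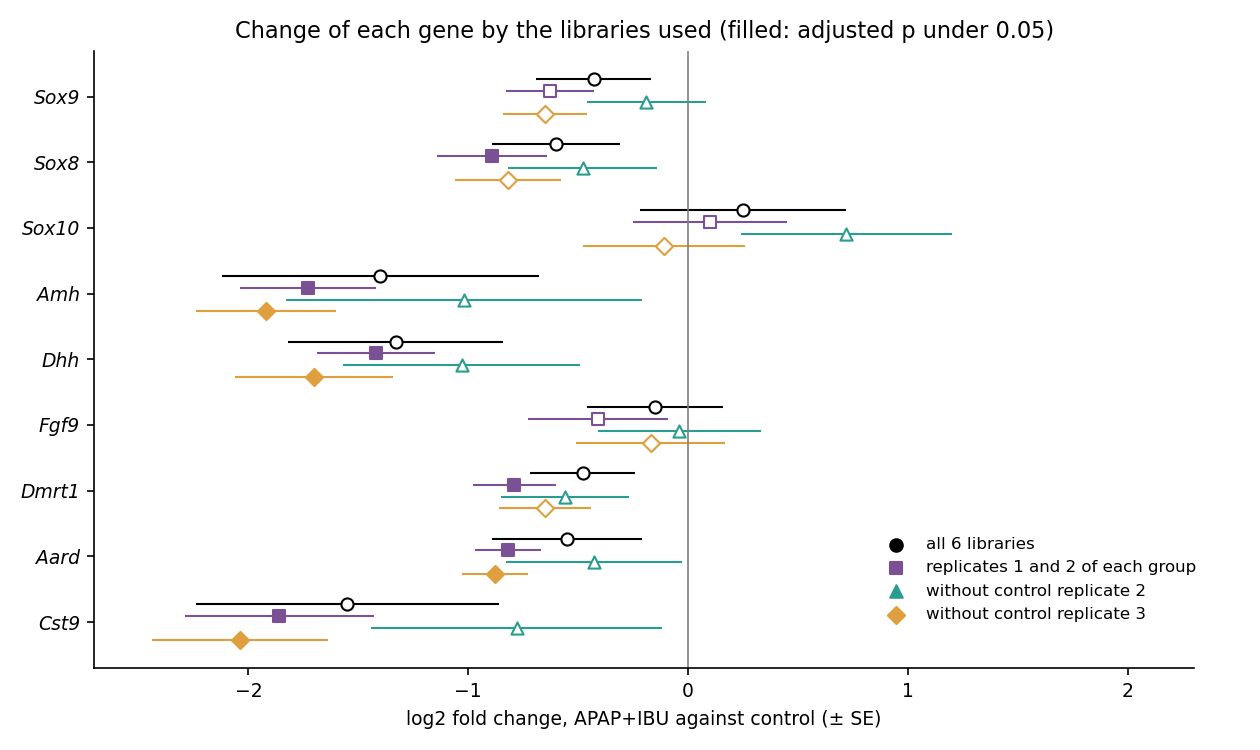
Log2 fold change of APAP+IBU over control (x axis, bars show the SE from edgeR's fit) for each gene (y axis) from the full 6 libraries, from replicates 1 and 2 alone, and without control replicate 2 or 3. Filled symbols have an adjusted p under 0.05: none with all 6 libraries or without control replicate 2, 6 with replicates 1 and 2, and 4 without control replicate 3.

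Levels of different genes were compared as CPM per kb of exon length. Averaged over the 6 libraries, the order was Aard (14.4 CPM per kb), Dmrt1 (13.5), Cst9 (5.88), Sox9 (1.71), Sox8 (1.13), Fgf9 (0.941), Amh (0.733), Dhh (0.425) and Sox10 (0.412). Cst9 was above Sox9 and Sox9 above Sox8 in 6 of 6 libraries. Aard was above Dmrt1 in 4 of 6 and Dhh above Sox10 in 3 of 6, and the order of these neighbours does not hold beyond the spread, nor does that of Sox8, Fgf9 and Amh, where each was above the next in 4 of 6. Dmrt1 was above Cst9, and Amh above Dhh, in 5 of 6. Among all tested genes, Aard stood at percentile 78.7 and Dmrt1 at 77.5, and Sox9, Sox8, Fgf9, Amh, Dhh and Sox10 at 37.1, 31.6, 29.2, 25.6, 18.1 and 17.6, with Cst9 between at 58.3. Aard and Dmrt1 were therefore not low among the genes of these ovaries. For comparison, the female pathway genes Wnt4 and Rspo1 had 40.4 and 36.1 CPM per kb in controls, and Foxl2 had 1.18 CPM per kb. Foxl2 varied between control pools as much as some members did, from 0.944 to 8.16 CPM.

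The genes around the members in the pathway gave the following counts, all at 0 called in edgeR's test over 6 libraries. Of 13 genes that act upstream of Sox9, 12 were tested, 7 had a positive and 5 a negative change, and the median log2 fold change was 0.02. Nr5a1, a partner of SRY on the Sox9 gene, had 166 ± 41.1 CPM in controls and 149 ± 12.0 CPM in APAP+IBU ovaries, and Gata4, which is needed for Sry expression, had 217 ± 20.9 and 228 ± 23.2 CPM (SD, n = 3). These factors serve gonads of both sexes. Nr5a1, at 37.1 CPM per kb over the 6 libraries, was above every member on that scale. The median of the 9 members, -0.55, can be read beside this value and the -0.22 of 14 other Sertoli genes, of which 5 were positive and 9 negative.

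Among these other Sertoli genes was Ptgds, the prostaglandin D2 synthase that SOX9 induces and whose product belongs to the prostaglandin pathway the drugs block. It had 4.85, 2.03 and 1.87 CPM in control replicates 1, 2 and 3 and 1.03 to 1.30 CPM in APAP+IBU ovaries. The groups did not overlap, and values lay wholly higher in controls for 5.92% of all tested genes too. The log2 fold change of Ptgds was -1.28 (SE 0.41, unadjusted p = 0.0146, adjusted p = 0.692 in edgeR's test). Its exact permutation p was 0.1, the smallest possible. Inhbb, a subunit of activin B and inhibin B, had 27.8 ± 7.53 and 28.1 ± 1.09 CPM (SD, n = 3). Hsd17b3, the enzyme that makes testosterone in Sertoli cells of the fetal testis, had 0.477 ± 0.283 and 0.179 ± 0.084 CPM.

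None of the genes listed as receptors and targets passed the test with all 6 libraries. The list held 13 genes, of which Ptgdr, a receptor of prostaglandin D2, was too low to be tested. Of the 12 tested, all of the AMH, DHH and FGF9 pathways, 8 were positive and 4 negative, with a median log2 fold change of 0.07. Amhr2, the AMH receptor, had 201 ± 73.8 CPM in controls and 173 ± 17 CPM in APAP+IBU ovaries, and in controls its level per length was 100 CPM per kb against 1.07 for Amh. Fgfr2, the receptor of FGF9 in the gonad, had 174 ± 13.3 and 186 ± 10.5 CPM (SD, n = 3). Ptch1 and Gli1, which hedgehog signals induce, had 71.9 ± 11.3 and 76.0 ± 8.12 CPM, and 18.5 ± 2.00 and 18.5 ± 7.10 CPM. Whether these changes differ from that of Dhh was not tested.

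Of 10 ovarian genes, 6 had a positive and 4 a negative change, with a median of 0.03. Wnt4 had 169 ± 55.4 CPM in controls and 152 ± 14 CPM in APAP+IBU ovaries, Rspo1 70.0 ± 20.3 and 69.8 ± 1.16 CPM, and Fst, a target of WNT4 signalling, 116 ± 12.4 and 134 ± 13.4 CPM (SD, n = 3). Foxl2 had 3.83 ± 3.82 and 3.93 ± 1.55 CPM. As for the members other than Fgf9, the controls spread more than the exposed libraries in Wnt4, Rspo1 and Foxl2, and control replicate 3 was the lowest library in all 3. Among 6 Leydig cell genes, 5 were tested, with a median of -0.24. Cyp17a1, a steroid enzyme of fetal Leydig cells, had 4.09 ± 1.12 and 2.15 ± 0.492 CPM. Its values lay wholly higher in controls, as for 5.92% of all tested genes. Its log2 fold change was -0.92 (SE 0.30, unadjusted p = 0.0161, adjusted p = 0.692 in edgeR's test). Insl3, the defining fetal Leydig hormone, had 0.0 to 0.236 CPM.

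**Figure D4:**
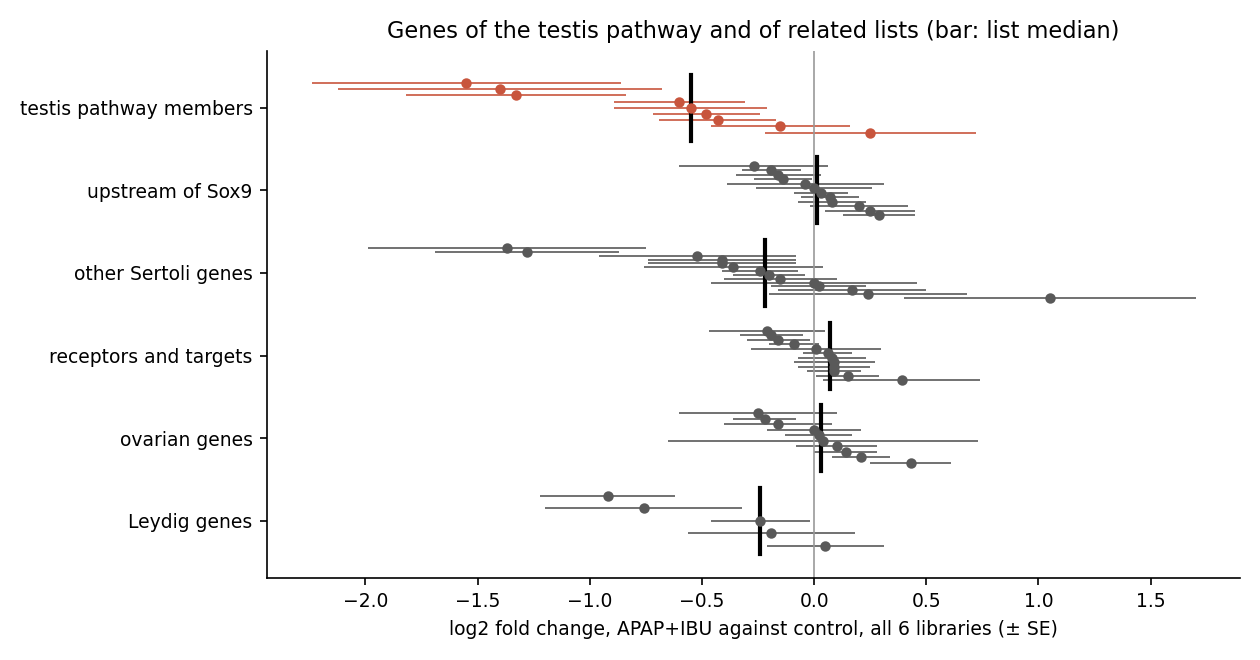
Log2 fold change of APAP+IBU over control with all 6 libraries (x axis, bars show the SE from edgeR's fit) for the tested genes of 6 lists (y axis), with the median of each list as a black bar. The medians are -0.55 for the members, 0.02 upstream of Sox9, -0.22 for other Sertoli genes, 0.07 for receptors and targets, 0.03 for ovarian and -0.24 for Leydig genes, and no gene shown has an adjusted p under 0.05.

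Markers of other cells that could carry the members were present at the following levels. The 6 genes of adult Sertoli and Leydig cells summed to 133 to 178 CPM in controls and 104 to 125 CPM in APAP+IBU ovaries, with none at 0. Most of this was Rhox5, an X-linked homeobox gene, at 111 ± 16.7 and 76.9 ± 8.41 CPM (SD, n = 3). Its values lay wholly higher in controls, as for 5.92% of all tested genes. Its log2 fold change was -0.53 (SE 0.15, unadjusted p = 0.00768, adjusted p = 0.613 in edgeR's test). Mesonephric genes summed to 53.4 to 69.1 CPM in controls and 39.5 to 82.0 CPM after exposure, with none of 6 at 0. Cartilage genes, whose cells also use Sox9, summed to 32.2 to 37.7 and 29.4 to 40.1 CPM, with 1 of 4 at 0 in replicate 3 of both groups. Pax2 and Pax8, which mark mesonephric tubules and ducts, had 3.70 ± 0.791 and 2.46 ± 0.234 CPM, and 11.5 ± 0.973 and 12.5 ± 2.09 CPM. The median log2 fold change of the 14 spermatid genes was -4.17, and 14 of 14 had an unadjusted p under 0.05, with a smallest adjusted p of 0.0906 in edgeR's test. DESeq2 called 14 of 14 lower over the same 6 libraries (smallest adjusted p = 6.91e-14), as did edgeR with replicates 1 and 2 only and without control replicate 3. The spermatid and adult cell sums were both higher in controls, the direction of 8 of 9 members. In the adult cell list, Rhox5 was the only gene whose groups did not overlap, and the values of every other gene overlapped. Of the 6 adult cell genes, 0 were called in edgeR's test over 6 libraries, and their median log2 fold change was -0.58. The part of either list in the members' values was not tested.

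For each member, the most similar genes were sought among the 108 tested genes of the other lists, by the root mean square difference of centred log2 CPM over the 6 libraries, where a smaller value is nearer. Cst9 was nearest to Fshr (0.34) and Hsd17b3 (0.47), against 1.16 for the spread of Cst9 itself on the same scale. Amh was nearest to Hsd17b3 (0.57) and Fshr (0.70), with a spread of its own of 1.17. Dhh was nearest to Cyp17a1 (0.37) and Hsd17b3 (0.38), with its own at 0.88. Hsd17b3 was thus among the nearest genes of all 3. Fshr is the receptor of follicle stimulating hormone on Sertoli and granulosa cells, and Fshr and Hsd17b3 were measured at under 1 CPM. Aard was nearest to Mro (0.22) and Amhr2 (0.24), Sox9 to Star (0.14) and Rhox8 (0.15), and Sox8 to Pax2 (0.19) and Rhox5 (0.21). Sox10 was nearest to S100b (0.33), a glial gene, and Kdm5d (0.41). Fgf9 was nearest to Gli1 (0.19) and Cdh16 (0.24), a mesonephric gene, and Dmrt1 to Gata3 (0.12) and Pou5f1 (0.15), a germ cell gene. The members' own spreads were 0.51 for Aard, 0.34 for Sox9, 0.41 for Sox8, 0.6 for Sox10, 0.36 for Fgf9 and 0.37 for Dmrt1. Small differences are thus partly a matter of members that varied little, and a shared cell type was not tested.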

How the data were processed

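Ovaries of 13.5 dpc embryos were sequenced as 3 control and 3 APAP+IBU libraries of polyadenylated RNA prepared with a stranded kit. Per the labels and the methods, the authors used bcl2fastq 2.17.1.14, TopHat2 2.0.14 with Bowtie2 2.1.0 on the mm10 assembly and HTSeq 0.6.1 with Ensembl gene models, and deposited raw read counts per gene with no normalisation. The strand setting of the counting is not given in the sources used here. Exposed samples were grouped by their exposure label, which gives both drugs, although their titles give only IBU.

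From the counts, edgeR 4.0.16 (R 4.3.3) was run on all 6 libraries with TMM normalisation, its expression filter and the quasi-likelihood test, with Benjamini-Hochberg adjustment over all 20167 tested genes. The SE is the absolute log2 fold change over the square root of the F statistic. Log2 CPM used a prior count of 1. The code was tested on simulated data. DESeq2 1.42.0, other scalings, other filters, a replicate block, a length and GC correction (loess span 0.3) and leaving out libraries served as alternatives. Symbols, positions, overlaps and lengths came from GENCODE M21 on GRCm38, the assembly of mm10 but a later annotation than that of the counts. Upstream sequences came from RefSeq on GRCm38.p6, which matched 4 of 9 members, and the windows of Cst9 and Dhh are shown.

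The members and gene lists were chosen with earlier results of these data known. Genes named are the members, a set list of pathway and cell markers (1 of which is not reported here), the gene of the highest mean level in a list, and the 2 nearest genes of each member. Rhebl1, Ptgdr and 2810468N07Rik were named after their values were seen. Same-numbered libraries did not deviate together (r across genes of -0.069, -0.015 and -0.044), so the replicate number was not treated as a pairing. Within each group, no library repeated another within sampling noise, and control libraries were not compared with exposed ones in this way. Depth limits the members with the fewest reads, Amh and Sox10, most.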

Additional observations from a re-analysis of the deposited data

How the results depend on the processing

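With all 6 libraries, 0 members, 0 other list genes and 0 of all tested genes were called. Members called became 6 with replicates 1 and 2 of each group only, 3 when these were also corrected for length and GC content (a setting chosen after seeing the data), and 0 to 4 when single libraries were left out, the 4 being without control replicate 3. List genes called became 14 with DESeq2 and 14 with all genes of at least 1 count, all of them spermatid genes, 33 with replicates 1 and 2 only, 22 with these and the correction, 12 with the replicate block and the correction, and 0 to 15 with single libraries left out. All genes called became 235 with DESeq2, 120 with all genes of at least 1 count, 5607 with replicates 1 and 2 only, 2709 with these and the correction, 34 with the replicate block and the correction, and 0 to 1064 with single libraries left out, the 1064 being without control replicate 3. The cause was not tested. With upper quartile scaling, 414 genes were higher and 821 lower at an unadjusted p under 0.05, against 606 and 648 with TMM, and the members kept 8 negative values and 1 positive under each scaling run.

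Among 17 alternatives, 2 members changed sign. The log2 fold change of Sox10 ran from -0.11 without control replicate 3 to 0.72 without control replicate 2. That of Fgf9 was 0.10 without APAP+IBU replicate 2 and -0.44 without APAP+IBU replicate 3, and -0.82 with replicates 1 and 2 and the correction. Over the same alternatives, that of Sox9 ran from -0.65 to -0.19, Sox8 from -0.89 to -0.48, Amh from -1.92 to -0.66, Dhh from -1.70 to -1.03, Dmrt1 from -0.79 to -0.20, Aard from -0.88 to -0.23 and Cst9 from -2.04 to -0.78.

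The replicate number as a block, which is not known to pair these pools, gave 0 members called, 2 list genes and 2 of all genes. Log2 fold changes of the members then ran from -1.26 to 0.36, with a smallest adjusted p of 0.737 among them in edgeR's test.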
